A study of Homo sapiens with 15 samples.

Results

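The genes described here encode 7 cytoplasmic tyrosine kinases that relay signals from immune receptors, namely the Src family kinases LYN, FGR, SRC, FYN and YES1, the kinase SYK and the TEC family kinase BTK. They were the rows of the count table with these symbols, 7 of 60286 genes, and all 7 passed the filter on low counts, which left 17198 genes. RNA was sequenced in 15 libraries of THP-1 cells, a human monocytic leukaemia line, with 3 libraries in each of 5 groups. Non-stimulated cells (NC) received PBS. EUC and EPL cells received 1 μg/mL bacterial extracellular vesicles (BEVs) of *E. coli*, isolated by ultracentrifugation (UC) or by precipitation with ε-poly-L-lysine (PL). SUC (UC) and SPL (PL) cells received BEVs of *S. aureus* at 10 μg/mL, so species and dose cannot be told apart. All cells were wild-type THP-1 kept in RPMI with serum and antibiotics, and the methods give 6 h of incubation where the labels give Day 0. The labels do not say that libraries of a group came from separate cultures, so the p-values measure the spread between these libraries, which may be technical.

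Src family kinases sit at the inner face of the plasma membrane and phosphorylate the ITAM motifs of activating receptors and the ITIM motifs of inhibitory ones. SYK docks on phosphorylated ITAMs and starts a cascade of adaptors, in which BTK helps to activate phospholipase C gamma. The kinase CSK holds Src family members inactive by phosphorylating their tail, and tyrosine phosphatases such as CD45 remove that phosphate. In monocytes and macrophages LYN and FGR are among the family members best known for signalling from Fc receptors, lectins and integrins.

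The stretches of genome just before the annotated start of transcription are shown for FGR and FYN, which were higher in stimulated cells, and for SYK, which was lower. They are the RefSeq promoter entries on GRCh38 whose start is the MANE Select start of the gene, and LYN and SRC had no entry. FGR is shown for chr1:27635186-27635435 (minus strand), FYN for chr6:111873453-111873702 (minus strand) and SYK for chr9:90801569-90801786 (plus strand), each read 5′ to 3′ on the strand of the gene. Capitals mark matches on either strand to the GC box GGGCGG, the CCAAT box CCAAT or GAGGAA, an ETS core with a flank that the myeloid factor PU.1 often prefers.
FGR: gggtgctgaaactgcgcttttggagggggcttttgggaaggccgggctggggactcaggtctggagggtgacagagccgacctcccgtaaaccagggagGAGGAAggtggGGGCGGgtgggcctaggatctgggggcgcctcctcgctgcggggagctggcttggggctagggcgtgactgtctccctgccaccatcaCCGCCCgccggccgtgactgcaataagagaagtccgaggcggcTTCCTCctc
FYN: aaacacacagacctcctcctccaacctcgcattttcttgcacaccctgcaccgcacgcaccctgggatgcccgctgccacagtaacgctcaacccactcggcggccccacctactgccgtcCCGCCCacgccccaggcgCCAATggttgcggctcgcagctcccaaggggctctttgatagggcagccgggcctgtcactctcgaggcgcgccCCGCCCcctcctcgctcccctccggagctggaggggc
SYK: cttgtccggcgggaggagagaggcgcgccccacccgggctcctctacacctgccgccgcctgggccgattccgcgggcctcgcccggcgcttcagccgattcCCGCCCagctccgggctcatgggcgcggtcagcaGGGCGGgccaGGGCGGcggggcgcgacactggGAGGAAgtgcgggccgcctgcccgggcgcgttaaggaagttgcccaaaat
FGR held 2 GC boxes and 2 matches to GAGGAA, FYN 2 GC boxes and 1 CCAAT box, and SYK 3 GC boxes and 1 match to GAGGAA. The SYK stretch was cut to 218 bases, since the last 32 bases of its window overlap an annotated SYK exon. Its full window of 250 bases held 3 GC boxes and 2 matches to GAGGAA. The TATA box TATAAA and the AP-1 element TGANTCA had 0 matches in all 3. Among 34943 RefSeq promoter windows of 250 bases, 42.5% held a GC box, 32.04% a CCAAT box, 23.6% GAGGAA, 10.8% TATAAA and 6.59% TGANTCA. Part of the FYN stretch, 115 bases, overlaps an exon of an antisense transcript. The reads were counted per gene, so which start was in use was not measured, and a match is a description of the letters only.

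The libraries held 14399421 to 16637345 counts. Levels are CPM, counts scaled to the TMM-normalized library size, and the fold changes below come from edgeR's quasi-likelihood test fitted to all 15 libraries. A gene was called at an adjusted p (Benjamini-Hochberg) of at most 0.01 and counted as a DEG if its log2 fold change was also at least 1 in size. In clustering of log2 CPM, a cluster of 4 libraries (EUC2, EUC3, EPL1 and SUC3) stood apart from the other 8 stimulated libraries, and results that turn on them are given without them. All 12 markers of the monocytic line were detected, with a summed level of 2440 to 2460 CPM in NC and 3100 to 3760 CPM in stimulated libraries, and CD14 was low at 3.20 to 9.90 CPM. The markers did not move together. CD14, CSF1R, SPI1, ITGB2 and PTPRC were higher in every stimulated library than in NC, and CD33, MPO and CEBPA were lower. LYZ, ITGAM, CEBPB and FCGR1A overlapped NC. SPI1 had 456 to 487 CPM in NC and 896 to 1390 CPM in stimulated libraries, and CEBPA 415 to 424 and 260 to 346 CPM. The T cell markers CD3D and CD3G had 0 counts in every library, the B cell marker MS4A1 had 6 counts in all and the NK cell marker KLRD1 3. Other NK cell markers were detected. NCAM1 had 10.4 to 12.6 CPM in NC and 7.63 to 12.3 CPM in stimulated libraries, and NKG7 11.3 to 14.0 and 14.1 to 19.7 CPM. The summed level of 4 NK cell markers was 23.9 to 26.9 CPM in NC and 24.3 to 30.7 CPM in stimulated libraries, and its part in the results was not tested. The summed level of 5 B cell markers, most of it PAX5, was 9.47 to 11.1 CPM in NC and 12.2 to 27.1 CPM in stimulated libraries, and its part in the results was not tested.

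BEV stimulation moved the members in both directions. LYN, SRC, FGR and FYN were higher in all 4 stimulated groups, SYK and YES1 were lower in all 4, and BTK was lower by a small margin that passed the test in EUC. There all 7 members passed the test, 4 higher and 3 lower, where 16.5% of tested genes were called higher and 14.0% lower. The counts were 4 higher and 2 lower in EPL (background 16.0% and 13.2%), in SUC (12.4% and 9.15%) and in SPL (13.3% and 10.6%). As DEGs counted 6 members in EUC, 5 in EPL, 4 in SPL and 3 in SUC, where 15.2%, 14.5%, 11.5% and 9.88% of tested genes were DEGs. The libraries of all 7 members lay apart from the NC libraries in each of the 4 stimulated groups, as did those of 50.8% (EUC), 52.1% (EPL), 46.7% (SUC) and 54.4% (SPL) of tested genes. The 4 comparisons share the NC libraries and are not independent. These are RNA levels of bulk cells, in which fewer cells that express a gene and less RNA per cell cannot be told apart.

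**Figure D1:**
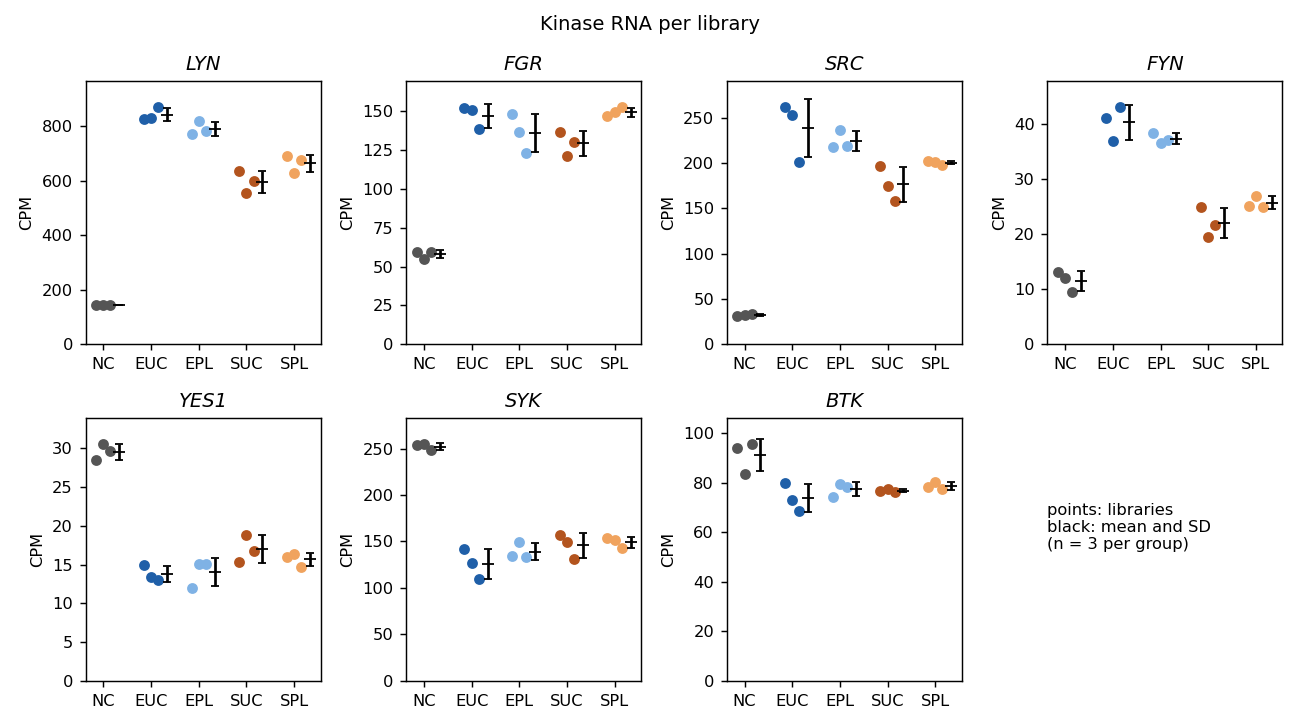
Level of each kinase in CPM (vertical axes from 0) in the 15 libraries, by group. Points are libraries and black bars the mean with SD (n = 3). LYN, FGR, SRC and FYN lie above NC in every stimulated library, and YES1, SYK and BTK lie below it.

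LYN (ENSG00000254087), which phosphorylates both activating and inhibitory receptors in myeloid cells, spans 55879835 to 56014169 on chromosome 8 of hg38. It had 143, 143 and 144 CPM in the NC libraries. It had 828, 829.8 and 870.2 CPM in EUC and 772, 819 and 782 CPM in EPL. In *S. aureus* BEV-stimulated cells the levels were 638, 556 and 598 CPM in SUC and 690.3, 630.0 and 676 CPM in SPL. The NC libraries were nearly level with each other and every stimulated library was several times higher. The fold change was 5.88 in EUC (log2 2.56, SE 0.0753, adjusted p = 4.12e-14), 5.52 in EPL, 4.16 in SUC and 4.64 in SPL. LYN was backed by 2233 to 2433 counts per library in NC and by 8891 to 13237 in stimulated cells.

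SRC (ENSG00000197122), the founding member of the family, acts at focal adhesions and below many growth factor receptors and integrins. The gene lies on chromosome 20 from 37344685 to 37406050. The NC libraries held 30.8, 32.4 and 33.8 CPM. The EUC libraries held 261, 253 and 201 CPM and the EPL libraries 218, 237 and 219 CPM. Levels were 196, 175 and 158 CPM in SUC and 202, 202 and 198 CPM in SPL. SRC had the largest fold change of the 7 members in each stimulated group, with 7.38 in EUC (log2 2.88, SE 0.107, adjusted p = 7.64e-13), 6.94 in EPL, 5.45 in SUC and 6.20 in SPL. EUC3 and SUC3 were the lowest libraries of their groups, and without EUC2, EUC3, EPL1 and SUC3 the log2 fold changes were 3.02, 2.82, 2.53 and 2.64.

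FGR (ENSG00000000938), a kinase largely restricted to myeloid cells, lies on chromosome 1 from 27612064 to 27635185, next to the promoter stretch shown above. It had 59.6, 54.9 and 59.1 CPM in NC. EUC libraries had 152, 151 and 138 CPM, and EPL libraries had 148, 137 and 123 CPM. SUC libraries had 137, 121 and 130.3 CPM, and SPL libraries had 147, 149.5 and 153 CPM. All stimulated libraries lay above NC. The SUC libraries lay below those of EUC and SPL, and the other pairs of stimulated groups overlapped. The fold change was 2.54 in EUC (log2 1.35, SE 0.0833, adjusted p = 6.37e-10), 2.35 in EPL, 2.24 in SUC and 2.59 in SPL.

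FYN (ENSG00000010810), best known from T cells and neurons, lies on chromosome 6 from 111660332 to 111873452. NC libraries had 13.1, 11.9 and 9.54 CPM, from 160 to 204 counts per library. EUC libraries had 41.0, 36.8 and 43.0 CPM, and EPL libraries 38.3, 36.5 and 37.2 CPM. The *S. aureus* BEV-stimulated libraries were lower, at 24.9, 19.5 and 21.6 CPM in SUC and 25.2, 27.0 and 24.8 CPM in SPL. The fold change was 3.50 in EUC (log2 1.81, SE 0.118, adjusted p = 1.37e-09), 3.24 in EPL, 1.91 in SUC and 2.23 in SPL. In SUC the log2 fold change of 0.93 lay below the DEG threshold, and it was 1.03 without NC1 and 1.02 without SUC2.

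YES1 (ENSG00000176105), a widely expressed close relative of SRC, was the one of the 5 Src family members that fell. The gene lies on chromosome 18 from 721588 to 812546. Its NC libraries had 28.4, 30.5 and 29.6 CPM. EUC libraries had 15.0, 13.4 and 13.0 CPM and EPL libraries 12.01, 15.0 and 15.1 CPM. SUC libraries had 15.3, 18.9 and 16.7 CPM and SPL libraries 16.0, 16.4 and 14.7 CPM. Every stimulated library lay below every NC library. The SUC libraries lay above those of EUC and EPL, and the other pairs of stimulated groups overlapped. YES1 fell by 1.10 on the log2 scale in EUC (SE 0.111, adjusted p = 3.57e-07), by 1.07 in EPL, by 0.80 in SUC and by 0.91 in SPL. The values in EUC and EPL lie close to the DEG threshold. Without EUC2, EUC3, EPL1 and SUC3 YES1 fell by 0.98 in EUC and by 0.97 in EPL, both still past the test, and without EPL1 alone it fell by 0.97 in EPL. Exons of YES1 share 154 and 159 bases with exons of antisense RNA genes that had 21 and 9 counts in all 15 libraries, and its processed copy YES1P1 had 64.

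SYK (ENSG00000165025), the kinase that binds phosphorylated ITAMs of receptors such as Dectin-1, lies on chromosome 9 from 90801787 to 90898549. It had 254, 255 and 248 CPM in NC. EUC libraries had 142, 127 and 109 CPM and EPL libraries 134, 149.5 and 134 CPM. SUC libraries had 157, 149 and 131 CPM and SPL libraries 153, 152 and 143 CPM. All stimulated libraries lay well below NC, and EUC3 was the lowest of them. SYK fell by 1.00 on the log2 scale in EUC (SE 0.0951, adjusted p = 1.69e-07), by 0.86 in EPL, by 0.79 in SUC and by 0.76 in SPL. The DEG call in EUC rests on a value at the threshold. SYK fell by 0.92 there without EUC3, by 0.99 without NC2 and by 0.83 without EUC2, EUC3, EPL1 and SUC3, still past the test in each case.

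BTK (ENSG00000010671), the kinase that phosphorylates phospholipase C gamma 2, lies on the X chromosome from 101349338 to 101390796. It had 94.1, 83.6 and 95.6 CPM in NC. It had 80.0, 73.0 and 68.7 CPM in EUC and 74.4, 79.6 and 78.3 CPM in EPL. It had 76.6, 77.4 and 76.4 CPM in SUC and 78.3, 80.3 and 77.4 CPM in SPL. The stimulated libraries lay below NC, by little in the case of NC2. BTK fell by 0.30 on the log2 scale in EUC (SE 0.0777, 1.23-fold, edgeR adjusted p = 0.00474). It was lower by log2 values of -0.23 in EPL (adjusted p = 0.0234), -0.25 in SUC (adjusted p = 0.0224) and -0.21 in SPL (adjusted p = 0.0446), which did not pass the threshold of 0.01. DESeq2 called BTK in SUC (adjusted p = 0.00922), and an edgeR fit of the compared groups alone called it in SPL (adjusted p = 0.00629). The difference between EPL and EUC was 0.07 (95% interval -0.10 to 0.23), so BTK was not shown to differ between these groups. The call in EUC was lost with no filter on low counts (adjusted p = 0.0368) and in the fit of the compared groups alone (adjusted p = 0.0373). It was also lost without NC1, NC3, EUC2 or EUC3 (adjusted p = 0.0205 to 0.0280), and without EUC2, EUC3, EPL1 and SUC3 the value was -0.19 (adjusted p = 0.0906). In that fit the calls were instead made in SUC (-0.23, adjusted p = 0.00671) and SPL (-0.20, adjusted p = 0.00645).

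**Figure D2:**
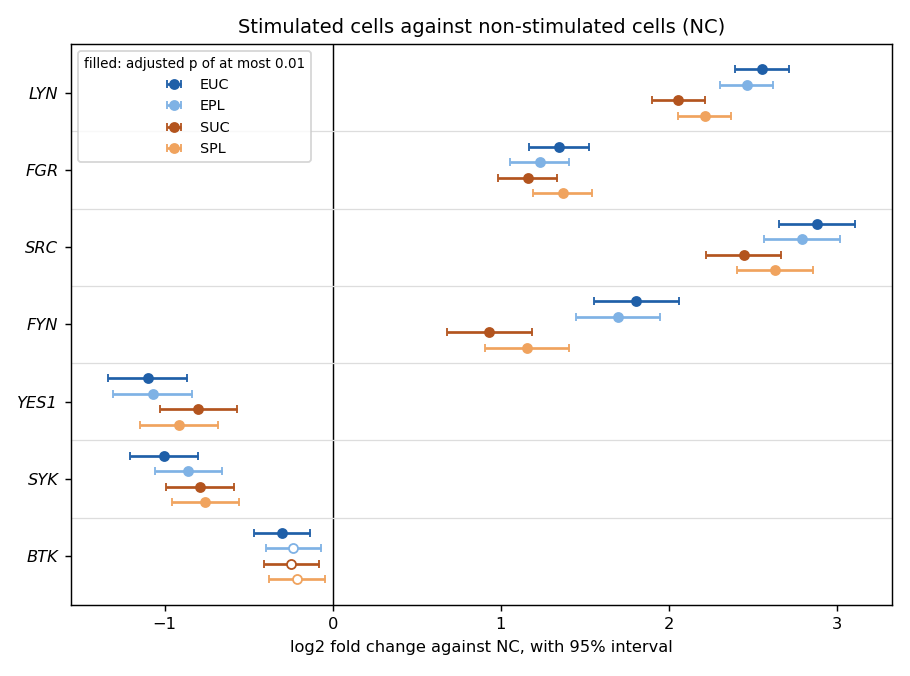
Fold change of each kinase against NC (horizontal axis, log2) with its 95% interval from edgeR, for EUC, EPL, SUC and SPL. Filled points passed the test. SRC and LYN lie farthest to the right at 2.06 or more, YES1 and SYK lie between -1.10 and -0.76, and BTK lies close to 0.

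Levels of different genes were compared as CPM per kb of exon, since long genes collect more reads. In NC the order was SYK at 48.4 ± 0.699 CPM per kb (SD, n = 3), LYN at 23.3 ± 0.117, FGR at 17.1 ± 0.765, BTK at 11.7 ± 0.840, YES1 at 5.79 ± 0.208, SRC at 4.53 ± 0.208 and FYN at 1.55 ± 0.242. No neighbours in this order overlapped. In every stimulated group LYN led, at 137 CPM per kb in EUC, 128 in EPL, 108.0 in SPL and 96.9 in SUC, and FGR came next at 38.3 to 44.3. SRC, in the sixth place in NC, took the third place in EUC (33.4 ± 4.55 CPM per kb) and EPL (31.4 ± 1.47), ahead of SYK at 24.1 ± 3.12 and 26.7 ± 1.73. In SUC and SPL the SYK libraries (25.2 to 30.2 and 27.4 to 29.4 CPM per kb) overlapped those of SRC (22.2 to 27.5 and 27.8 to 28.3), so their order is not set. BTK took the fifth place in these 4 groups at 9.45 to 10.1 CPM per kb. FYN and YES1 were last, with FYN above YES1 in EUC, EPL and SPL and the libraries overlapping in SUC. With the length of the longest transcript in place of all exon bases, 8 of the 35 places changed, all between neighbours. These were SRC and YES1 in NC, SYK and SRC in SUC and SPL, and FYN and YES1 in SUC.

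**Figure D3:**
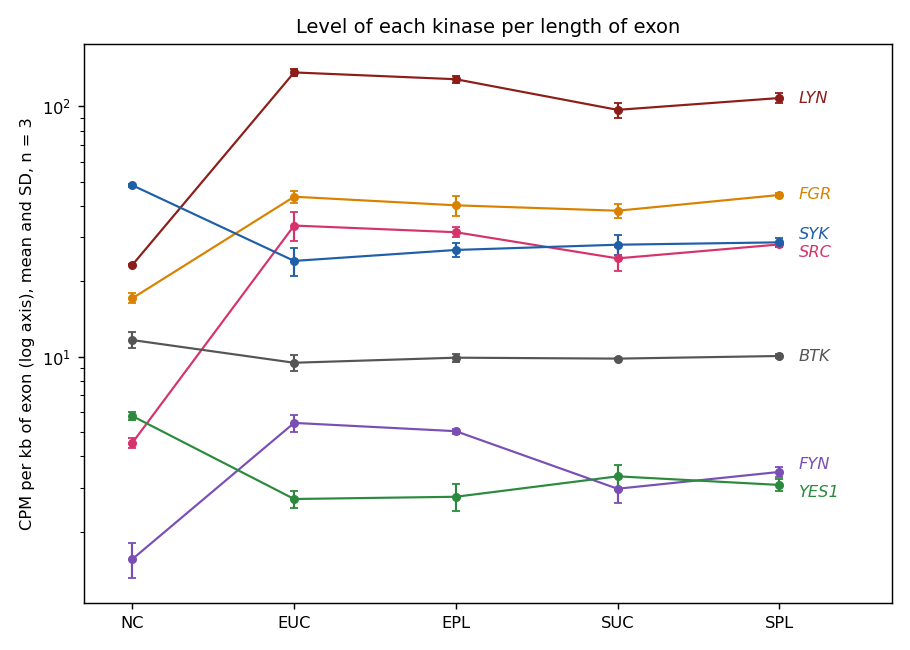
Mean level of each kinase per kb of exon (vertical log axis, bars show SD, n = 3) in the 5 groups. Lines join the groups of a gene and stand for no order in time. SYK leads in NC and LYN in the other groups, and the SRC line crosses from below YES1 to the level of SYK.

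The levels of the 5 Src family members were also summed. The sum was 52.3 ± 0.592 CPM per kb in NC (SD, n = 3), 222 ± 2.97 in EUC, 208 ± 6.25 in EPL, 187 ± 4.67 in SPL and 166 ± 10.7 in SUC. It was 4.25, 3.98, 3.58 and 3.18 times the NC mean in these groups. No stimulated library overlapped NC. LYN made up 44.5% ± 0.428 of the sum in NC and 57.8% to 61.8% as group means in stimulated cells. The share of SRC was 8.67% ± 0.387 in NC and 14.9% to 15.1% in stimulated groups. FGR rose less than the sum, and its share was 32.8% ± 1.12 in NC and 19.4% to 23.7% in stimulated groups. YES1 went from 11.1% ± 0.495 to between 1.22% and 2.02%. The shares add up to a whole and so cannot move independently.

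**Figure D4:**
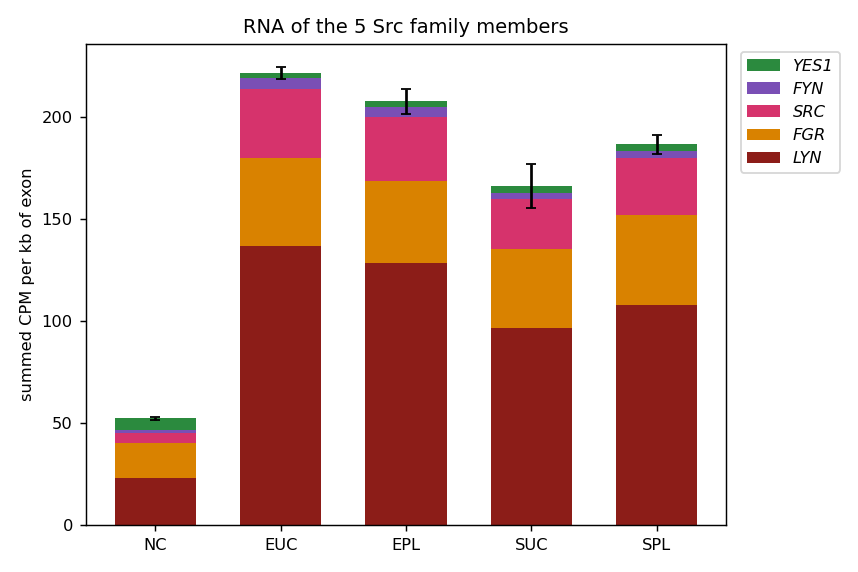
Summed RNA of the 5 Src family members in CPM per kb of exon (vertical axis from 0) by group, split by gene, with the SD of the sum (n = 3). LYN forms the largest part in every group, and the sum is lowest in NC at 52.3.

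Related kinases outside the 7 were also measured. FRK, a relative of the Src family, stayed under 2 CPM, at 0.284 in NC and 1.58 in EUC, and passed the test in EUC and EPL. TEC, which gives the family of BTK its name, had log2 fold changes of -1.52 (EUC), -1.41 (EPL), -1.16 (SUC) and -1.21 (SPL), from 20.4 ± 2.07 CPM in NC. TXK, at 3.10 CPM in NC, had log2 values of -0.65 to -0.51 and passed in no group. LCK and BLK, Src family kinases of lymphocytes, had 0 counts in all 15 libraries, which allows up to 3 counts in all. Against this, 10.9% of tested genes were called higher in all 4 groups and 7.67% lower.

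The species were compared by the mean of EUC and EPL against the mean of SUC and SPL. Of the 7 members, 2 were called, both higher with *E. coli* BEVs, where 2.87% of tested genes were called higher and 0.686% were DEGs in either direction. FYN was 1.63 times higher (log2 0.71, SE 0.0796, edgeR adjusted p = 2.23e-05), with 36.5 to 43.0 CPM in the 6 *E. coli* libraries and 19.5 to 27.0 CPM in the 6 *S. aureus* libraries. LYN was 1.30 times higher (log2 0.37, SE 0.0501, adjusted p = 0.000124), with 772 to 870.2 CPM against 556 to 690.3 CPM. The 6 libraries of one species did not overlap the 6 of the other for either gene. The share of all tested genes that lie apart in this way was not counted, so this describes the 2 genes only. Without EUC2, EUC3, EPL1 and SUC3 the log2 values were 0.70 for FYN and 0.36 for LYN, both called. No member was a DEG in this comparison, by edgeR or by DESeq2, and 5 had an unadjusted edgeR p under 0.05.

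SRC had a log2 difference of 0.30 between the species (95% interval 0.15 to 0.45, adjusted p = 0.0123), with 201 to 261 CPM against 158 to 202 CPM, and its libraries overlapped. It was called by DESeq2 (adjusted p = 0.00151), which called 3 members in all. It was also called by edgeR with no filter on low counts (log2 0.29, adjusted p = 0.00481). Leaving out EUC3 (0.34, adjusted p = 0.000741) or SUC1 (0.33, adjusted p = 0.00639) led to a call as well. For SRC, EUC3 was the lowest *E. coli* library and SUC1 the highest SUC library. SRC was not called with any other single library left out. It was also not called with RLE size factors, the filter of at least 1 CPM, the replicate block or the compared groups alone. The fit without EUC2, EUC3, EPL1 and SUC3 leaves 1 EUC library, and for SRC only its effect size is given. The log2 difference of SRC was 0.33 in that fit, larger than the 0.30 with all libraries. The difference was 0.02 for FGR (interval -0.10 to 0.15) and -0.04 for BTK (interval -0.16 to 0.08). The falling members YES1 and SYK had differences of -0.23 (interval -0.40 to -0.06) and -0.16 (interval -0.30 to -0.02), with adjusted p-values of 0.116 and 0.224. These did not pass the test and their libraries overlapped.

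The isolation methods were compared within each species. Between EPL and EUC edgeR and DESeq2 called 0 of the 7 members, and 0 had an unadjusted p under 0.05 in edgeR, where 0.0% of all tested genes were called. The log2 differences lay between -0.11 for FGR and 0.15 for SYK, and their 95% intervals between -0.34 and 0.35. Between SPL and SUC both tools called 0 members, where edgeR called 0.00581% of tested genes. There FGR was higher by 0.21 (interval 0.04 to 0.38, unadjusted p = 0.0201 in edgeR across all genes, adjusted p = 0.814) and LYN by 0.16 (interval 0.01 to 0.31, unadjusted p = 0.0422, adjusted p = 0.827). The 7 intervals lay between -0.35 and 0.47. The difference between methods was also compared between the species, and 0 members were called by either tool (0.0% of all tested genes by edgeR). FGR and LYN had an unadjusted p under 0.05 in that comparison, with log2 values of -0.32 (interval -0.57 to -0.08) and -0.25 (interval -0.46 to -0.04). Intervals of this width do not show that the vesicles of both methods acted alike, but place the differences of the members in each species below 0.47 in size on the log2 scale.

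**Figure D5:**
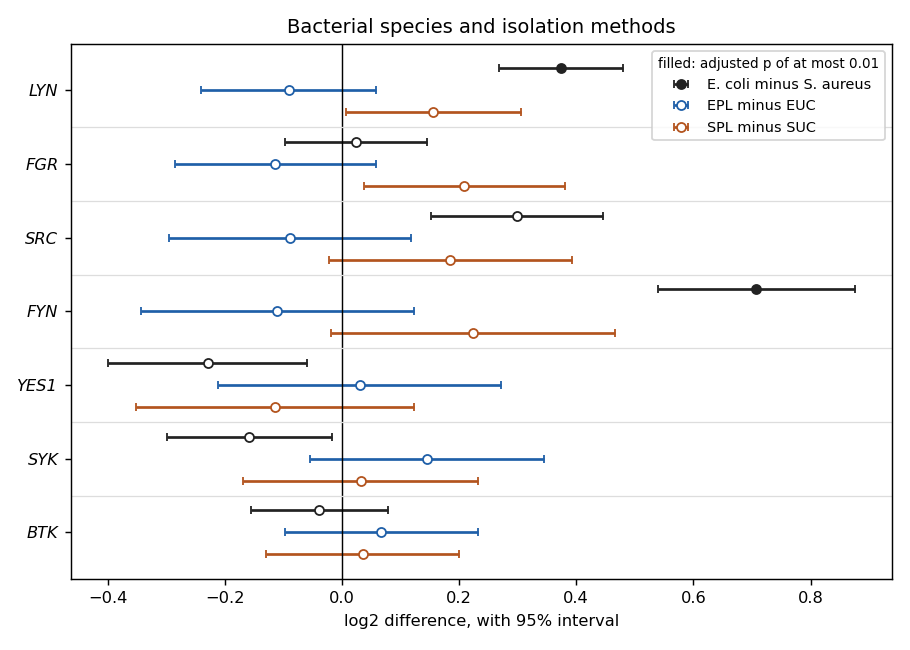
Log2 differences (horizontal axis) with 95% intervals from edgeR for each kinase, between species (mean of both methods) and between methods within a species. Filled points passed the test. FYN at 0.71 and LYN at 0.37 passed between the species, and no kinase passed between methods.

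Genes around these kinases were described by lists. For each list below, the background is that 10.9% of all tested genes were called higher in all 4 stimulated groups and 7.67% lower. Of 20 tested enzymes and adaptors that regulate Src family kinases, 8 were called higher in all 4 stimulated groups and 3 lower, and the median log2 fold change was 0.22 to 0.29, beside medians of -0.01 to 0.01 over all tested genes. PTPRE, a receptor-type phosphatase able to remove the inhibitory phosphate, rose most, from 38.3 CPM in NC to 299 CPM in EUC, with log2 fold changes of 2.96, 2.86, 2.31 and 2.58 in EUC, EPL, SUC and SPL. PTPN22, a phosphatase that opposes Src family kinases, fell, with log2 fold changes of -2.33, -2.07, -2.14 and -2.10, from 16.8 CPM in NC. MATK, a relative of CSK that also phosphorylates the inhibitory tail, fell, with -1.39, -1.71, -1.15 and -1.50. PTPN18, the third gene that fell in all 4 groups, had -1.04 to -0.79. PTPRC, which encodes CD45, rose by 0.62 to 0.88. CSK itself had log2 values of 0.15 to 0.29 and passed in no group.

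Of 16 tested activating receptors and adaptors that signal through ITAMs, 3 were called higher and 3 lower in all 4 groups, with list medians between -0.0024 and 0.06. CLEC7A, which encodes Dectin-1, rose from 0.225 CPM (SD 0.101) in NC to 14.4 CPM in EUC, with log2 fold changes of 5.96, 5.94, 4.80 and 5.03. Its NC level was very low, so the size of these fold changes is uncertain. TREM1 rose by 1.92 to 2.29 from 2.19 CPM, and LILRA6 by 3.90 in EUC from 0.178 CPM in NC, also a very low level. LILR genes share near-identical sequence, so their counts are uncertain. FCGR2A (-0.89 to -0.63), SIRPB1 (-1.48 to -0.97) and LILRA2 (-1.63 to -1.47) fell. The shared adaptor chains TYROBP and FCER1G passed in no group, with log2 values of -0.04 to 0.13. Most inhibitory receptors of the next list recruit phosphatases after Src family kinases phosphorylate them. Of 15 tested, 5 rose (SIRPA, LILRB1, LILRB2, PILRA and SIGLEC1) and 6 fell in all 4 groups, with list medians of 0.23 to 0.36. SIGLEC1, a sialic acid receptor that lacks an ITIM of its own, rose by 2.24 to 2.72 and LILRB2 by 1.31 to 2.26. The lectin CLEC12A, at 7.07 CPM in NC, fell, with -3.21, -2.44, -1.96 and -2.71.

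Of 40 tested substrates and signalling proteins downstream, 11 were higher and 10 lower in all 4 groups, with list medians of -0.12 to 0.04. PIK3R5, a regulatory subunit of PI 3-kinase gamma, had log2 fold changes of 2.53, 2.52, 1.59 and 2.09. DAPP1, an adaptor of B cell receptor signalling phosphorylated by Src family kinases, rose by 1.89 to 2.12, and PIK3AP1, which links tyrosine kinases to PI 3-kinase, by 1.80 to 2.07. PLCG2, the substrate of BTK, fell, with -0.71, -0.60, -0.56 and -0.47, from 170 CPM in NC. Of 8 tested integrin chains, 3 rose (ITGAV, ITGB2 and ITGAX) and 2 fell (ITGA4 and ITGAL) in all 4 groups, with list medians of 0.07 to 0.15. The log2 fold changes were 0.73 to 1.10 for ITGAV, -1.35 to -1.03 for ITGA4 and -0.98 to -0.41 for ITGAL.

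For each member, genes with the most similar pattern over the 15 libraries were sought among 14526 genes with a mean of at least 1 CPM. The measure was the root mean square difference of log2 CPM, each gene centred on its own mean. EHD1 and CMPK2 (both 0.0674) and TAP1 (0.0783) were closest to LYN, where the median over all genes was 0.977. DUSP4 (0.0780), NFKB1 (0.0946) and DPYSL2 (0.0959) were closest to SRC. BTN2A1, SNN and LINC00926 (0.0787 to 0.0882) were closest to FGR. For FYN the nearest were PPM1K (0.107), SEMA7A (0.136) and ENSG00000266709 (0.155), farther away than for any other member. ESYT2, WHAMMP2 and SLC44A1 (0.0759 to 0.0944) lay nearest to YES1 and AKAP1, BRD3 and PPP6R1 (0.0670 to 0.0738) nearest to SYK. CHAMP1 (0.0432) and GPHN (0.0503) were the closest to BTK, with a median over all genes of 0.272, so that a small distance is less selective for a gene that moved little.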

How the data were processed

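RNA of 15 THP-1 libraries was sequenced from both ends, with 3 libraries in each of 5 groups taken from the titles and treatments in the labels. The authors checked reads with FastQC (0.11.5) and aligned them with HISAT2 (2.1.0) to hg38. The submitters' processing notes also name StringTie (1.3.3b), featureCounts and DESeq (1.28.0) without a role. The authors deposited whole-number read counts per Ensembl gene, without normalization. Strand setting and annotation release were not given in the sources used here.

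Analysis of the counts used edgeR 4.0.16 and R 4.3.3. The filter filterByExpr left 17198 of 60286 genes, library sizes were normalized by TMM, and glmQLFit and glmQLFTest were run on all 15 libraries without a replicate block, with Benjamini-Hochberg adjustment over all tested genes. The thresholds of an adjusted p of 0.01 and a log2 fold change of 1 follow the study, which used DESeq2. DESeq2 1.42.0 was an alternative, beside RLE size factors, other filters, a replicate block, a fit of the compared groups alone, an adjusted p of 0.05, each library left out, and EUC2, EUC3, EPL1 and SUC3 left out together. Library totals without TMM were added after seeing the data. The set of EUC2, EUC3, EPL1 and SUC3 was taken from the clustering of these same libraries, so it too rests on the data. The scripts were tested on simulated data. Gene positions, exon bases and overlaps come from GENCODE on hg38, and level per length is CPM divided by the kb of all exon bases of a gene. Log2 CPM used a prior count of 2. Limits on a count of 0 cover counting error only.

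The members and gene lists were chosen with earlier results of these data known. From each pathway list, the 3 genes with the largest mean change among those called in all 4 stimulated groups in 1 direction were named, with every other Src, SYK or TEC family kinase and, for each member, the 3 genes most like it. PTPRC, CSK, PTPN18, FCGR2A, SIRPB1, LILRA2, TYROBP, FCER1G, PLCG2, SIRPA, LILRB1, PILRA, ITGB2 and ITGAX were named after their values were seen. Some genes that this rule names are not reported here. ZAP70 and BMX had at most 9 counts in a library and were not tested. Same-numbered libraries were checked for shared deviations from their group means. No label gives a sequencing batch.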

Additional observations from a re-analysis of the deposited data

Results flagged for a closer look

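Among the members, FYN and LYN differed between the species of BEVs by a test of the difference itself (edgeR's quasi-likelihood test on all 15 libraries). The response of FYN was higher with *E. coli* BEVs by 0.71 on the log2 scale and that of LYN by 0.37. The 6 libraries of each species did not overlap, but the share of all tested genes with this trait was not counted. The doses were 1 μg/mL for *E. coli* and 10 μg/mL for *S. aureus* BEVs, so species and dose cannot be told apart.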

How the results depend on the processing

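LYN, FGR, SRC, FYN, YES1 and SYK kept their direction and stayed past the test in all 4 comparisons with NC under all 23 alternatives, and the counts of called members stayed within 1.5 times throughout. With the length of the longest transcript, 8 places in the order of levels per length changed. Small differences near 0 changed sign, none of them called. With library totals in place of TMM, which moved the median of all genes against NC by -0.16 (EUC) to -0.11 (SUC), the species difference of FGR was -0.0014, and BTK was called in all 4 groups. Without EUC2, EUC3, EPL1 and SUC3, which leaves 1 EUC library that is assumed to vary like the others, BTK had 0.0238 between species, -0.0177 between EPL and EUC and -0.047 in the comparison of methods between species, and SYK had -0.0406 between SPL and SUC. With each library left out in turn, the ranges were -0.0087 to 0.047 for FGR between species, -0.0319 to 0.13 for YES1 between EPL and EUC, -0.039 to 0.0905 for SYK between SPL and SUC, and -0.0199 to 0.0908 for BTK in the comparison of methods between species. The cause was not tested. With the replicate block, 7 members were called in EUC and 6 in each of EPL, SUC and SPL, as without it. The replicate numbers were not shown to pair the libraries. The deviations of same-numbered libraries correlated at -0.45 to 0.52 over 30 pairs, 7 of them over 0.1. Their mean correlation was 0.0095, beside -0.0036 for libraries of other groups with other numbers. Yet 9 of 15 libraries correlated best with their own number, so the check does not settle whether the numbers pair the libraries. Depth limits little for the members, the lowest of which had 160 counts in a library.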
